A study of Mus musculus with 23 samples.

Results

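Genes of T cells that lie within the intestinal epithelium and of cytotoxic T cells were followed in RNA from the small intestine of mice given busulfan and then saline or FMT (fecal microbiota transplantation). They were taken by name, as Cd3e, Cd3g, Cd3d, Cd8a, Cd8b1, Gzma, Gzmb, Nkg7, Itgae and Ccl5, and all 10 were found among the 19215 entries of the deposited table. All 23 libraries came from ICR mice. By the study's methods these were males that were 3 weeks old when they received a single injection of busulfan at 40 mg/kg, an alkylating anticancer drug that damages the intestinal mucosa. No library without busulfan was analysed here. Sa mice were then gavaged with saline, Con-FMT mice with luminal content of donors dosed with vehicle, and A10-FMT and A100-FMT mice with luminal content of donors that had received alginate oligosaccharides (AOS) at 10 mg/kg or 100 mg/kg for 3 weeks. By the methods, donor content was pooled within each donor group, so the mice that received a pool shared 1 inoculum. The methods give daily gavage for 1 week and collection at 5 weeks of age, which could be tied by a shared sample code to set 1 only. Sets 1 and 2 are libraries whose names carry different codes. The sources used here do not say what the code means, or whether both sets received the same pools. Each of the 8 groups (4 treatments by 2 sets) held 3 libraries, except Sa of set 1 with 2. The labels do not say that replicates are separate animals, so p-values measure the spread between libraries.

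Intraepithelial lymphocytes sit between the epithelial cells of the gut and are mostly T cells that carry CD8. The CD3 chains couple the T cell receptor to signalling inside the cell, and CD8 binds MHC class I as a co-receptor. CD8 of intraepithelial cells is often a pair of alpha chains, while that of conventional cytotoxic T cells is an alpha and a beta chain. Cytotoxic cells hold granzymes, proteases that kill a target cell once released into it, and the chemokine Ccl5. CD103 (Itgae), paired with Itgb7, anchors intraepithelial T cells to E-cadherin on the epithelium.

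Levels are FPKM, fragment numbers scaled by transcript length and library size, so they can be compared between genes. Gzma was the highest of the 10 at a mean of 48.9 FPKM over all libraries, followed by Ccl5 at 24.3 FPKM and Gzmb at 21.5 FPKM. Cd3g (4.09 FPKM), Nkg7 (3.21 FPKM), Cd8a (2.47 FPKM) and Cd3e (1.504 FPKM) were lower. Cd3d, Cd8b1 and Itgae had means of 0.828, 0.652 and 0.195 FPKM and lay under the minimum mean of 1 FPKM set for testing, so 7 of the 10 genes were tested and the other 3 are given as values. A gene can pass such a minimum through 1 high group. Itgae, the defining CD103 chain of intraepithelial lymphocytes, was thus the lowest of the 10, between 0.05 and 0.51 FPKM, although T cell, CD8 and granzyme transcripts were present in every library.

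Some markers of other cells were low. Ncr1 of natural killer cells did not exceed 0.06 FPKM, Cd4 0.22 FPKM and the macrophage receptor Csf1r 0.13 FPKM. These were chosen after their values were seen, and other genes listed for such cells were higher. Tyrobp reached 2.2 FPKM, Itgam 6.57 FPKM and Cd44 12.26 FPKM, so the low markers do not show that a cell type was absent. In contrast, 10 enterocyte genes summed to between 4486 and 10200 FPKM. Epithelial transcripts thus far exceeded those of any lymphocyte in these libraries. In bulk RNA, fewer cells of a type and less RNA per cell cannot be told apart. Sa replicate 3 of set 1 stood apart from the other libraries. Its log2 values correlated with theirs at 0.944 to 0.965, against 0.968 to 0.991 among the other libraries, and its deviations followed the GC content of the genes (Spearman's rho 0.698, against -0.227 to 0.222 elsewhere).

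**Figure D1:**
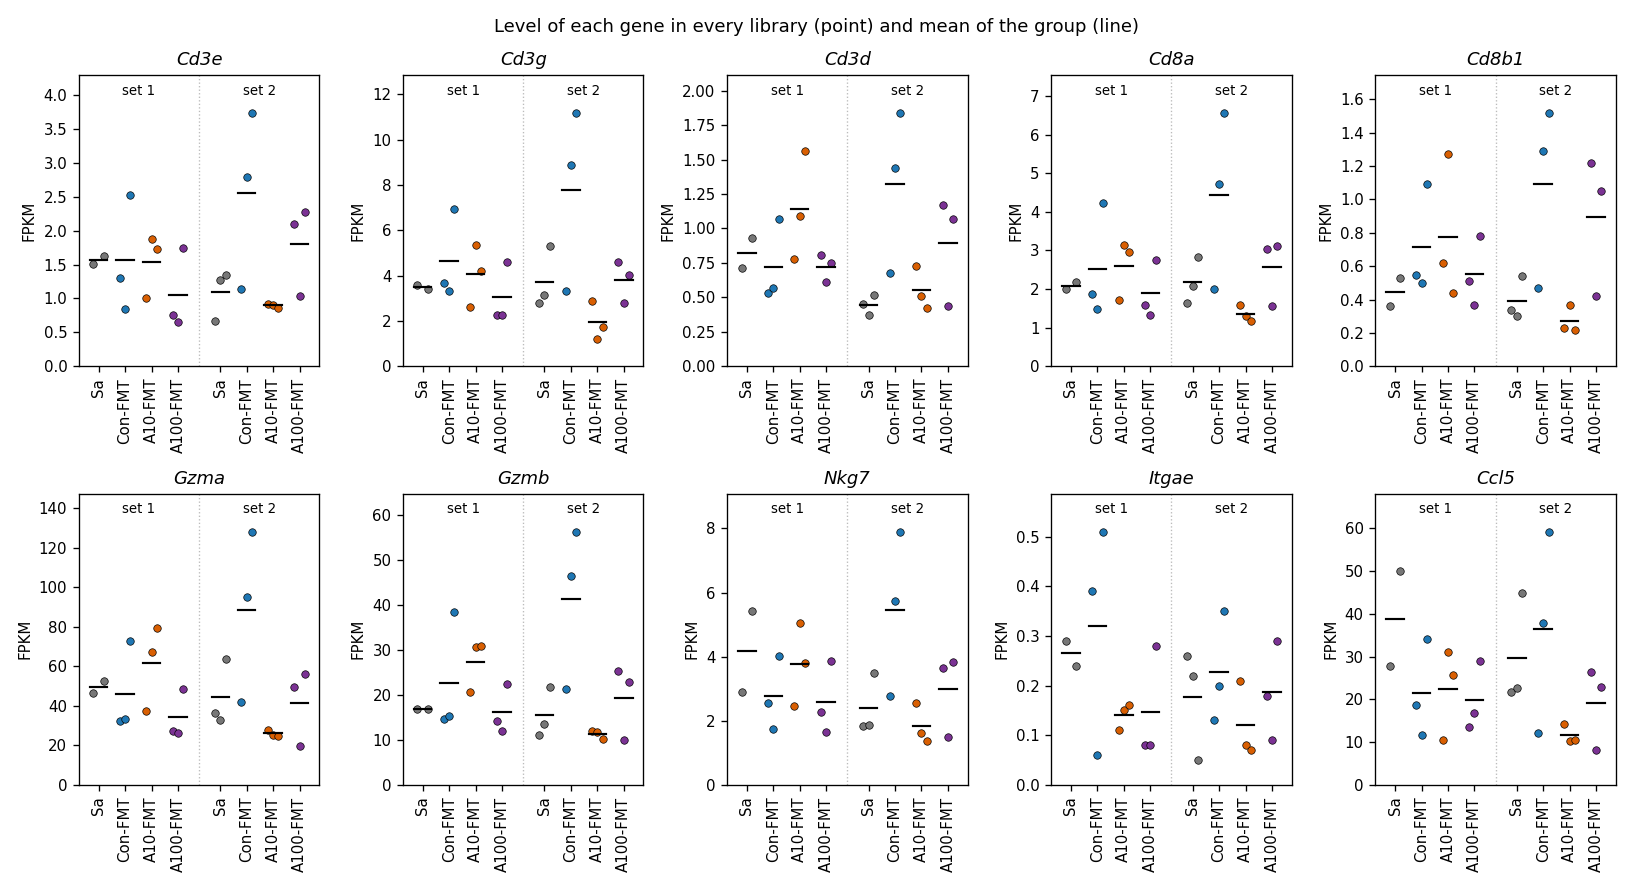
FPKM of the 10 genes (y axis, linear, each from 0) in each library (points) of the 8 groups (x axis), with the mean of each group as a line and set 1 left of the dotted line. Con-FMT of set 2 held the highest library of 9 genes, all but Itgae, and its replicate 1 was lower than its replicates 2 and 3 for every gene.

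The CD3 genes lie together on chromosome 9 (GRCm38, the build named mm10 in the submitters' notes), with Cd3g at 44969572 to 44980431 and Cd3e at 44998735 to 45009663 on the minus strand, and Cd3d between them at 44981769 to 44987052 on the plus strand. Cd3g ran from 2.24 to 6.96 FPKM in set 1. In set 2 it was 2.77, 3.13 and 5.31 FPKM in Sa, 3.32, 8.87 and 11.19 in Con-FMT, 1.22, 1.75 and 2.86 in A10-FMT, and 2.8, 4.03 and 4.60 in A100-FMT. The 3 A10-FMT libraries of set 2 lay below the 3 Con-FMT libraries without overlap, and Sa overlapped with both. Cd3e gave the same picture, with 0.86, 0.91 and 0.92 FPKM in A10-FMT of set 2 against 1.14, 2.79 and 3.74 FPKM in Con-FMT of set 2. Cd3d, the third chain, reached 1.44 and 1.84 FPKM in Con-FMT replicates 2 and 3 of set 2, but replicate 1 at 0.68 FPKM overlapped with A10-FMT at 0.42 to 0.73 FPKM. Sa of set 2 (0.37 to 0.52 FPKM) lay below all 3 Con-FMT libraries for Cd3d, where 6.3% of all tested genes were higher in Con-FMT without overlap.

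The CD8 genes are neighbours on chromosome 6, Cd8b1 at 71322788 to 71337492 and Cd8a at 71373427 to 71379171, both on the plus strand. Cd8a was higher than Cd8b1 in all 23 libraries, and Cd8b1 stood at 0.144 to 0.406 of the level of Cd8a. In set 2, Cd8a was 2.01, 4.72 and 6.57 FPKM in Con-FMT and 1.18, 1.31 and 1.58 FPKM in A10-FMT. Sa of set 2 had 1.64, 2.08 and 2.82 FPKM, so A10-FMT was also below every Sa library of its set. In set 1, the Cd8a libraries of Con-FMT (1.47 to 4.23 FPKM) enclosed those of A10-FMT (1.71 to 3.13 FPKM). Cd8b1, the beta chain, did not overlap between A10-FMT (0.22 to 0.37 FPKM) and Con-FMT (0.47 to 1.52 FPKM) of set 2 either.

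Gzma (chromosome 13, 113093824 to 113100981, minus strand), a tryptase-like granzyme, was 42.1, 94.8 and 128.1 FPKM in Con-FMT of set 2. In A10-FMT of the same set it was 24.8, 25.4 and 27.9 FPKM, below all libraries of Con-FMT and of Sa (32.7, 36.5 and 63.5 FPKM). In set 1 the order of the means was the other way round, with A10-FMT at 61.4 ± 21.4 FPKM (SD, n = 3) and Con-FMT at 46.2 ± 23.2 FPKM (SD, n = 3), and the libraries overlapped. Gzmb (chromosome 14, 56258836 to 56262334, minus strand) cleaves after aspartate and triggers apoptosis in the target cell. It was 21.4, 46.5 and 56.2 FPKM in Con-FMT and 10.2, 11.7 and 11.98 FPKM in A10-FMT of set 2, against 14.6 to 38.4 FPKM and 20.6 to 30.9 FPKM in set 1. Both Sa libraries of set 1 (16.95 and 16.93 FPKM) were below A10-FMT of that set, where 13.9% of all tested genes were higher in A10-FMT without overlap. Gzmb is 1 of several related granzyme genes, and how the counting divided fragments shared between them is not given in the sources used here. Nkg7 (chromosome 7, 43437138 to 43438246, plus strand), a membrane protein of cytotoxic granules, was 2.77, 5.73 and 7.90 FPKM in Con-FMT and 1.38, 1.62 and 2.55 FPKM in A10-FMT of set 2, again without overlap.

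Promoters of 7 of the genes were matched in RefSeq on GRCm38.p6, and those of Cd8b1, Itgae and Ccl5 were not. For 6 of the 7, the bases after the start lay in a GENCODE transcript of the gene. The starts used for Cd3e and Cd3d lie inside the gene positions given above. The 250 bases before the start are shown for the 3 granule genes, since these were called together below, and for Cd8a, whose level they followed. Cd8a and Cd3g were just over the same threshold, so the call does not set the granule genes apart from them. Capitals mark TGTGGT, a core letter string bound by RUNX factors, and TCACAC, a string of T-box factors, on either strand. The strings do not overlap each other in these windows.
Gzma, chr13:113100982-113101231, minus strand: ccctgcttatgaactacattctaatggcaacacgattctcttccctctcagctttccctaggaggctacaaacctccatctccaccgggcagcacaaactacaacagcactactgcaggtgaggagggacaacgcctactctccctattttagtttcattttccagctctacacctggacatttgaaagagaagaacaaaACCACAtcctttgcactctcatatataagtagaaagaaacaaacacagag
Gzmb, chr14:56262335-56262584, minus strand: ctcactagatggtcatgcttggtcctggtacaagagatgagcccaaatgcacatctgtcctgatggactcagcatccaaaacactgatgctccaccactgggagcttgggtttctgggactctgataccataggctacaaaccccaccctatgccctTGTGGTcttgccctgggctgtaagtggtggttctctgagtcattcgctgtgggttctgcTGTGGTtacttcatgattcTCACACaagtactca
Nkg7, chr7:43436888-43437137, plus strand: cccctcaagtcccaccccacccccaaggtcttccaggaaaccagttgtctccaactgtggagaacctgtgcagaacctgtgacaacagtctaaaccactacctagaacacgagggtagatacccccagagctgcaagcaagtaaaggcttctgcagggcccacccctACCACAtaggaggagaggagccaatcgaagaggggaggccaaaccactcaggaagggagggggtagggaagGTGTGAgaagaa
Cd8a, chr6:71373177-71373426, plus strand: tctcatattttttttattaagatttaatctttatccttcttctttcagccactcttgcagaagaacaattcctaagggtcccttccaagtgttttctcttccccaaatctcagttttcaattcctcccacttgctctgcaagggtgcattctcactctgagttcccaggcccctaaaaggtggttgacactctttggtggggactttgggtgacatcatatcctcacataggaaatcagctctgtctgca
TGTGGT was found in the windows of Gzma, Gzmb and Nkg7 and in none of the other 4 (Cd3e, Cd3g, Cd3d and Cd8a), while 14.0% of all 32851 promoters of this length held it. Gzmb held it at 93 and 34 bases before the start, Nkg7 at 83 and Gzma at 50. TCACAC lay 15 bases before the start of Gzmb and 12 before that of Nkg7, and was held by 12.3% of all promoters. These are matches of letters and were not measured as binding.

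Itgae (chromosome 11, 73090505 to 73147449, plus strand) was the only one of the 10 whose highest library was not in Con-FMT of set 2. Its highest value, 0.51 FPKM, was in Con-FMT of set 1, where another library had 0.06 FPKM. A10-FMT of set 1 (0.11, 0.15 and 0.16 FPKM) lay below Sa of set 1 (0.24 and 0.29 FPKM), where 23.5% of all tested genes were lower without overlap, all of them low values. Ccl5 (chromosome 11, 83525778 to 83530518, minus strand), a chemokine that draws T cells, was 27.7 and 49.98 FPKM in Sa of set 1 and 21.7, 22.6 and 44.9 FPKM in Sa of set 2. A10-FMT of set 2, at 10.3, 10.6 and 14.1 FPKM, was below all of the latter. Con-FMT of set 2 was spread most widely, at 12.2, 37.9 and 59.2 FPKM.

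Between the groups, differences are those of mean log2(FPKM + 1) in a limma model over all 11337 genes tested, with Benjamini-Hochberg adjustment over all of them and a threshold of 0.05. This scale understates the change of the low genes. The percentages of all tested genes that were called give the background for each count. In set 1, limma called none of the 7 genes in Con-FMT vs. Sa (background 26.9%), A10-FMT vs. Sa (32.0%), A100-FMT vs. Sa (35.2%), A10-FMT vs. Con-FMT (16.7%) or A100-FMT vs. Con-FMT (0.406%). At an unadjusted p under 0.05 the count was also 0 in each of these 5, where 44.5%, 44.6%, 48.3%, 31.8% and 11.3% of all tested genes lay under it, and no other tool was run. The median difference of the 7 genes in these comparisons was -0.06, 0.13, -0.36, 0.09 and -0.31, beside 0.05, -0.01, 0.05, -0.08 and 0.00 over all genes. The intervals were wide. For Gzmb in A10-FMT vs. Con-FMT the 95% interval of the difference ran from -0.46 to 1.21, and for Ccl5 from -1.10 to 1.21. None of the 7 genes thus passed the test in set 1, which does not show that they were alike between the groups.

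In set 2 few genes of the whole table were called, and the T cell genes had large differences that did not pass the adjusted threshold. In A10-FMT vs. Con-FMT all 7 were lower in A10-FMT, with a median of -1.32 beside 0.05 over all genes. None passed the limma threshold after adjustment (background 0.379%), while 7 of 7 had an unadjusted p under 0.05, as had 11.9% of all genes. Gzmb differed by -1.68 ± 0.40 (SE, adjusted p = 0.0669 by limma), Cd3g by -1.49 ± 0.35 (0.0669), Gzma by -1.59 ± 0.44 (0.128) and Cd8a by -1.11 ± 0.31 (0.134). Groups did not overlap for 7 of the 10 genes, of which 6 of the 7 tested, where 8.3% of all tested genes were lower in A10-FMT without overlap. Cd3d, Itgae and Ccl5 overlapped. The 7 tested genes varied together over all libraries (median Pearson's r of 0.887 over 21 pairs), so these counts are not of independent genes. Without Con-FMT replicate 1 of set 2, the low one of its group, limma called 5 of 7 (Cd3e, Cd3g, Cd8a, Gzma and Gzmb), without either Sa library of set 1 it called 2 (Cd3g and Gzmb), and with array quality weights, which give both those Sa libraries a weight of 0.0859, it called 6.

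The other contrasts of set 2 share their Con-FMT, A10-FMT or Sa libraries with each other, so they are not independent. In Con-FMT vs. Sa, all 7 genes had a higher mean in Con-FMT, none was called by limma (background 0.0353%) and 5 had an unadjusted p under 0.05, as had 5.74% of all tested genes. Gzmb had the largest difference, 1.31 ± 0.40 (SE, adjusted p = 0.45 by limma), and Ccl5 the smallest, 0.11 ± 0.55. In A100-FMT vs. Con-FMT, all 7 were lower in A100-FMT, with a median of -0.76. None was called by limma (background 0.0%), and Cd3g, Gzma and Gzmb had an unadjusted p under 0.05, as had 11.2% of all tested genes. A100-FMT replicate 2 of set 2 was the low library there, with 19.6 FPKM of Gzma beside 49.3 and 56.0 FPKM. A10-FMT vs. Sa (0.423%) and A100-FMT vs. Sa (0.0353%) gave 0 calls by limma, with 1 gene (Ccl5) and 0 genes at an unadjusted p under 0.05, beside 14.4% and 14.2% of all tested genes. Cd8a, Gzma and Ccl5 did not overlap between A10-FMT and Sa of set 2, where 11.4% of all tested genes were lower without overlap.

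**Figure D2:**
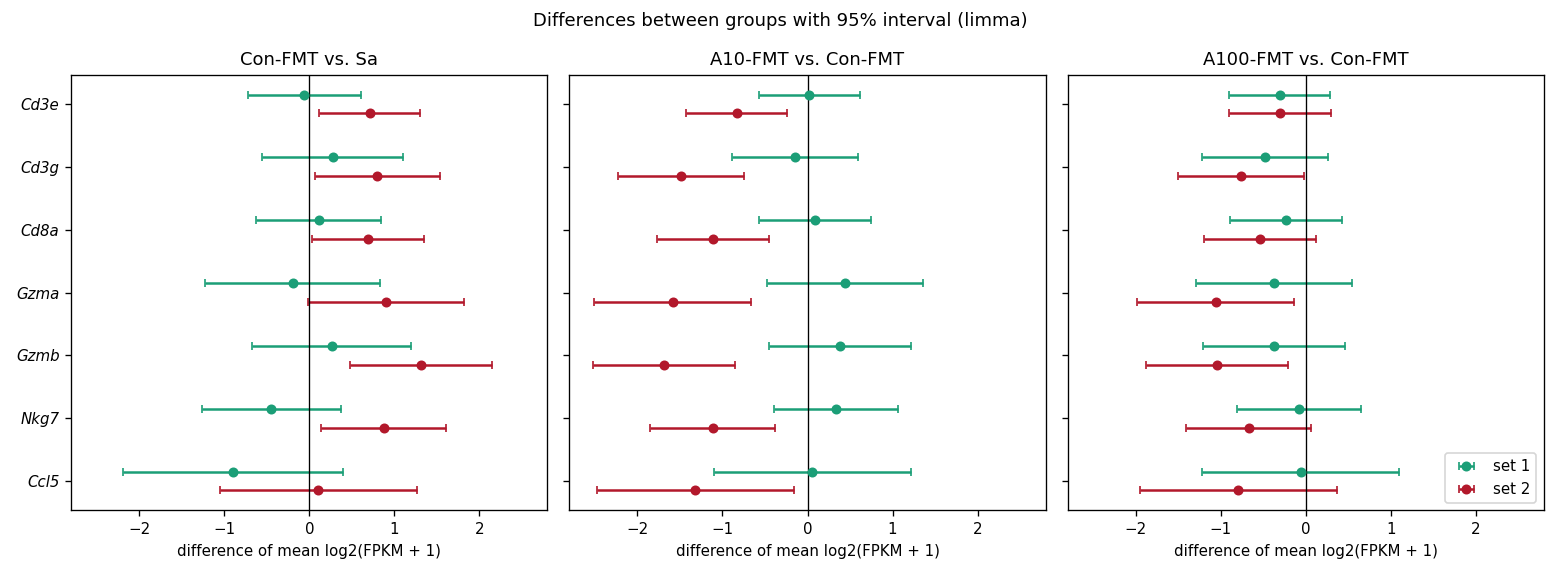
Difference of mean log2(FPKM + 1) (x axis) of the 7 tested genes (y axis) with its 95% interval from limma, in set 1 and set 2. In A10-FMT vs. Con-FMT the set 2 intervals of all 7 genes lie below 0 (Gzmb at -1.68), and the set 1 intervals of all 7 include 0.

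Averaged over both sets, limma called none of the 7 genes in Con-FMT vs. Sa (background 0.75%), A10-FMT vs. Sa (0.132%), A100-FMT vs. Sa (0.891%), A10-FMT vs. Con-FMT (0.0%) or A100-FMT vs. Con-FMT (0.123%). At an unadjusted p under 0.05 the counts were 1, 1, 0, 3 and 3 of 7, beside 23.5%, 19.9%, 26.3%, 6.15% and 9.68% of all tested genes, so the counts of 1 and 0 were under the background. The 1 gene of Con-FMT vs. Sa was Gzmb (0.79) and that of A10-FMT vs. Sa was Ccl5 (-1.02 ± 0.41, SE). Between set 2 and set 1 over all treatments, 0 of 7 were called (background 13.3%) or had an unadjusted p under 0.05 (34.4% of all tested genes), and the median difference was -0.07.

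The difference between the sets was tested directly as an interaction. For A10-FMT vs. Con-FMT, the contrast in set 2 minus that in set 1 was called by limma for 3 of the 7 genes, the granule genes Gzmb (-2.06 ± 0.56, SE, adjusted p = 0.0158 by limma), Gzma (-2.03 ± 0.62, adjusted p = 0.0275) and Nkg7 (-1.45 ± 0.49, adjusted p = 0.0442). Of all tested genes, 20.8% were called in this interaction and 6.7% were called in this direction. All 7 pointed the same way, with a median of -1.37 beside 0.13 over all genes, and 6 had an unadjusted p under 0.05, as had 34.6% of all tested genes. As the 7 genes varied together over the libraries, these counts do not stand for separate results. Cd8a (-1.20, adjusted p = 0.0628) and Cd3g (-1.34, adjusted p = 0.0634) were just over the limma threshold, and Cd3e and Ccl5 were at 0.139 and 0.222. Without a minimum level, Cd3d was called as well (-0.86, adjusted p = 0.0445 by limma), while Gzma and Nkg7 no longer were. Gzmb was called under all 33 alternatives, and the count of genes ran from 1 to 6 when single libraries were left out. It was 6 without Con-FMT replicate 1 of set 2, and 1 (Gzmb) without replicate 2 or 3 of Con-FMT or A10-FMT in set 2, replicate 1 or 2 of Con-FMT in set 1, or replicate 2 or 3 of A10-FMT in set 1. The interactions of Con-FMT vs. Sa (background 0.00882%), A10-FMT vs. Sa (28.4%), A100-FMT vs. Sa (26.8%) and A100-FMT vs. Con-FMT (0.0%) gave 0 calls by limma, with 1, 0, 0 and 0 genes at an unadjusted p under 0.05, beside 34.3%, 41.3%, 42.5% and 13.1% of all tested genes.

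Epithelial genes moved in the same interaction, in which 20.8% of all tested genes were called and 6.7% were called lower. Of 10 enterocyte genes 6 were called lower and 1 higher, led by the fatty acid binding protein Fabp2 (-1.88, adjusted p = 0.000327 by limma) and the apolipoprotein Apoa4 (-1.84, adjusted p = 0.00019). Of 11 crypt proliferation genes 8 were called higher, such as the replication factor Pcna (0.33, adjusted p = 0.0217). The enterocyte sum was 8875 to 10200 FPKM in A10-FMT of set 1 and 4537 to 5517 FPKM in A10-FMT of set 2, and the crypt sum was 454 to 480 and 602 to 638 FPKM, while Con-FMT had 5824 to 6483 and 5990 to 7198 FPKM of enterocyte genes. The part of this in the result for the granule genes was not tested. The B cell list lay between 2.16 and 3.84 FPKM over all libraries, of which most was Cd79b and Cd37. The smooth muscle list lay between 0.84 and 2.31 FPKM, most of it Tagln.

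These genes were spread widely over the libraries. The highest library exceeded the lowest 5.57- to 9.17-fold for the 7 tested genes, where the median of 11204 tested genes above 0 throughout was 1.72-fold and 3.91% reached 5.57-fold. The genes varied together. Taking Cd8a as the reference, a choice made after the values were seen, log2(FPKM + 1) of Cd3e correlated with it at r = 0.955 (rho = 0.927), Cd3g at 0.95 (0.913), Gzmb at 0.946 (0.916), Gzma at 0.935 (0.934) and Nkg7 at 0.898 (0.924) over the 23 libraries. Cd8b1 (r = 0.862, rho = 0.78), Cd3d (0.823, 0.744) and Ccl5 (0.798, 0.836) followed. Itgae was loosest (r = 0.55, rho = 0.553, adjusted p = 0.00669 and 0.00716 in permutation tests over 9 genes), and for the other 8 the adjusted permutation p of r was 1.13e-05, where 1e-05 is the smallest unadjusted p the 100000 resamples can give. For their rho the adjusted permutation p was 1.8e-05 to 6.75e-05. The permutations exchanged all 23 libraries freely and not within groups, so differences between groups count toward these p-values.

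**Figure D3:**
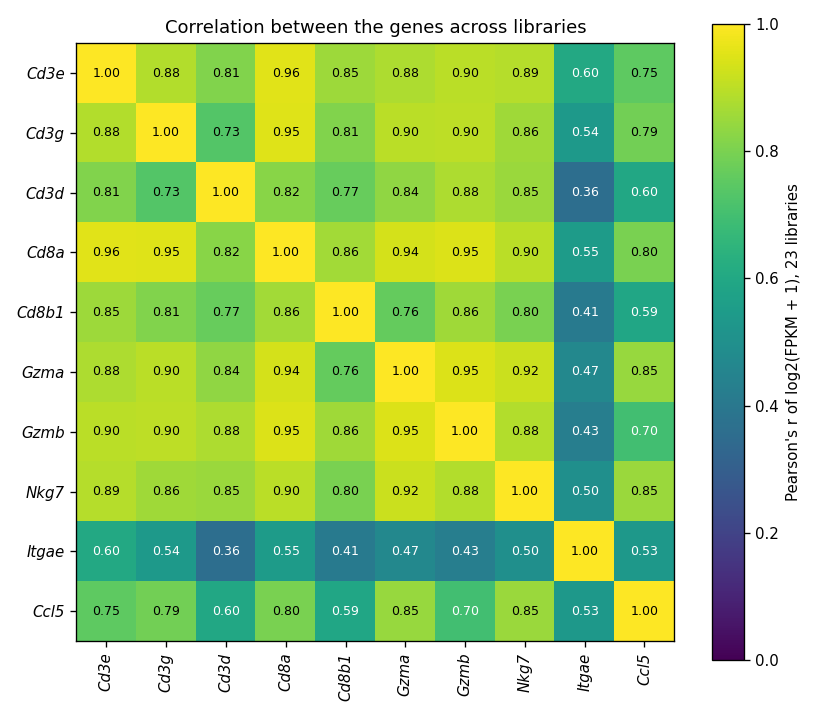
Pearson's r between each pair of the 10 genes (rows and columns) over 23 libraries, on a colour scale from 0 to 1. Of the 45 pairs the median r is 0.835, the row of Itgae holds the lowest values down to 0.361, and Cd3e with Cd8a is the highest at 0.955.

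The relations were also computed without the highest libraries, within sets and within groups. Without Con-FMT replicates 2 and 3 of set 2, the farthest from the median of Cd8a, r with Cd8a was 0.546 for Itgae and 0.695 to 0.923 for the others. Within set 1 it was 0.64 for Itgae and 0.687 to 0.949 for the others, and within set 2 0.591 and 0.871 to 0.97. After the mean of each group was subtracted, r was 0.633 for Itgae, 0.84 to 0.978 for the others, and 0.94 for Ccl5, whose pooled r was 0.798. So Ccl5 followed Cd8a more closely within groups than across them. The same held by smaller margins for Cd3e, Cd3d, Gzma, Gzmb, Nkg7 and Itgae, but not for Cd3g and Cd8b1.

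**Figure D4:**
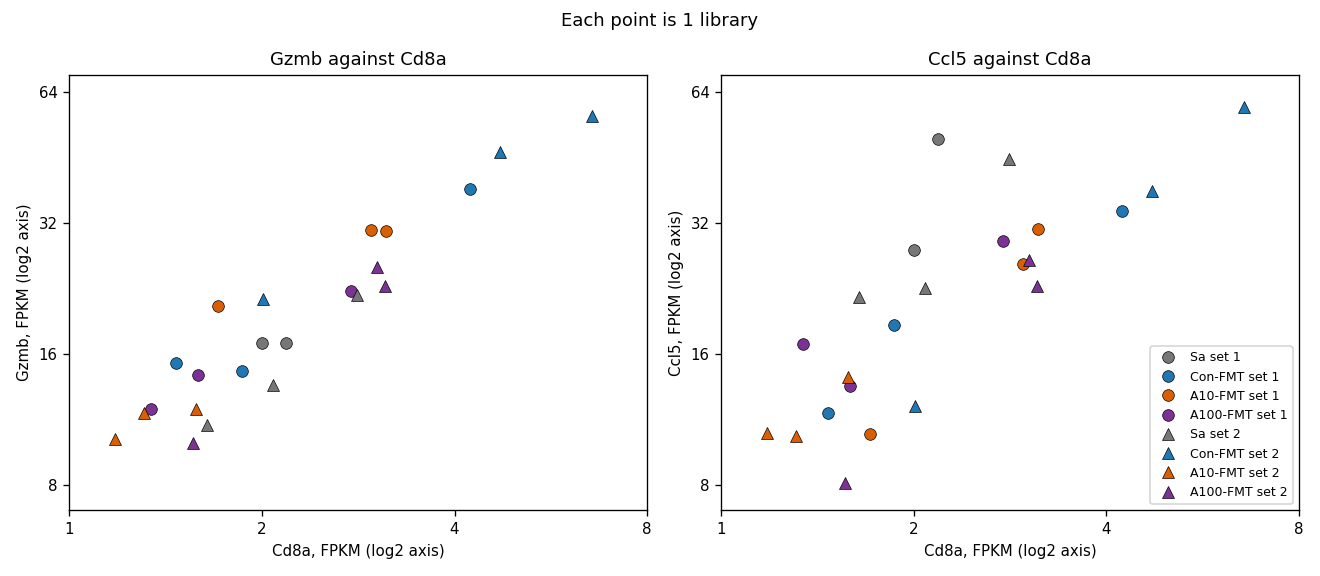
FPKM of Gzmb and of Ccl5 (y axes, log2) against Cd8a (x axis, log2) in each library, circles for set 1 and triangles for set 2. Gzmb follows Cd8a in all groups (r = 0.946), and for Ccl5 the 5 Sa libraries lie above FMT libraries of like Cd8a level.

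That difference was then measured as a ratio. Ccl5 stood at 13.9 and 22.9 times the FPKM of Cd8a in Sa of set 1 and at 10.9, 13.2 and 15.9 times in Sa of set 2. In the FMT libraries it was 6.13 to 12.6 times in set 1 and 5.17 to 9.01 times in set 2. In both sets every Sa library was above every FMT library. The log2 ratio was higher in Sa by 0.886 on average over the sets (exact two-sided permutation test within sets, 12100 regroupings, p = 0.000165, the smallest it can give, adjusted p = 0.00149 over the 9 ratios to Cd8a). Within set 2 alone the difference was 0.783 (exact permutation p = 0.00909) and within set 1 0.989 (exact permutation p = 0.0364), each the smallest p possible. The test was chosen after the values were seen, so its p restates a separation seen first, and it pools the 3 FMT groups. The share of all tested genes whose ratio to Cd8a separates Sa from FMT is not given here. Whether the separation is particular to Ccl5 was thus not tested. By level, a single FMT group lay below Sa without overlap for 13.5% to 23.5% of all tested genes in set 1. In set 2 this share was 10.1% to 11.4%. Without Sa replicate 3 of set 1, the library with the GC trend, the difference was 0.704, and relative to Cd3e or Cd3g in place of Cd8a it was 0.894 and 0.821. None of the other 8 ratios passed the adjustment. Gzmb relative to Cd8a went the other way, with a log2 ratio lower in Sa by a difference of -0.242 (exact permutation p = 0.0149, adjusted p = 0.0669), and its libraries overlapped in both sets.

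**Figure D5:**
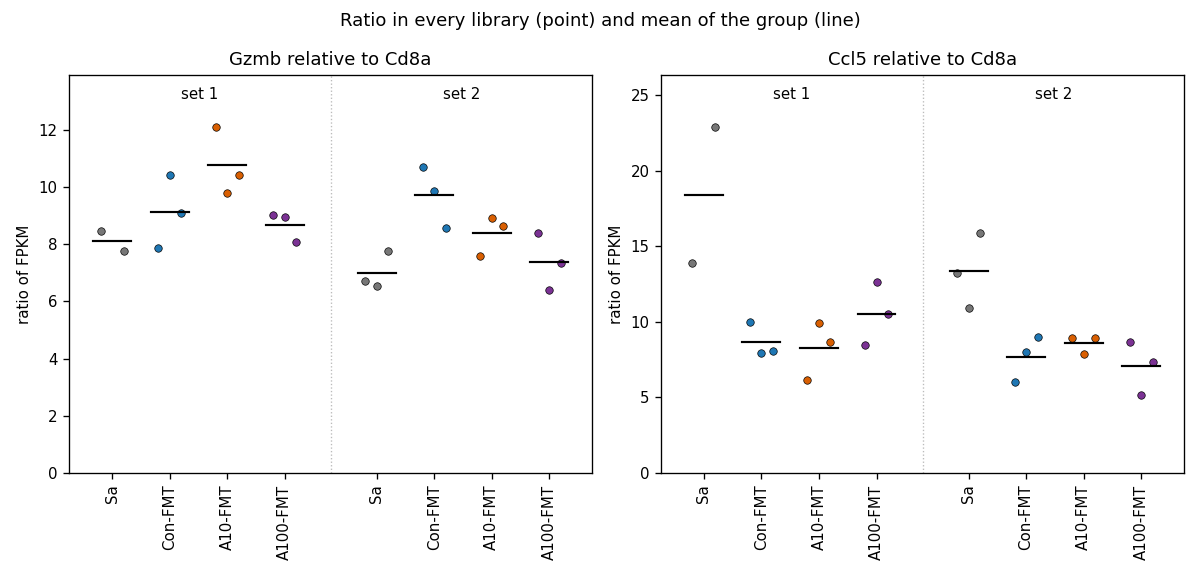
Ratio of the FPKM of Gzmb (left) and Ccl5 (right) to that of Cd8a (y axes from 0) in each library (points) of the 8 groups, with the mean of the group as a line. For Ccl5 the Sa libraries of set 2 (10.9 to 15.9) all exceed the FMT libraries of that set (5.17 to 9.01), and those of set 1 (13.9 and 22.9) exceed 12.6.

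Genes outside the 10 were then ranked by their likeness to the CD3 genes. The 10 tested genes outside the 10 that were most like the mean of Cd3e, Cd3g and Cd3d over the 23 libraries were Arhgdib (r = 0.953), Laptm5 (0.951), Lsp1 (0.946), Rac2 and Itgb7 (0.945 each), Selplg (0.943), Septin1 (0.942), Fxyd5 (0.918), an entry with only a BGI identifier (0.916) and Coro1a (0.908). Most of these are known from white blood cells in general, such as Rac2, a small GTPase, and Coro1a, which binds actin. Itgb7 is the chain that pairs with Itgae (CD103) and, in gut homing, with another alpha chain. Of 11330 tested genes outside the 10, 11 reached an r of 0.9 and 18 an r of 0.8, and the median was -0.07.

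Of the companion lists, 27 genes of the T cell receptor complex and its signalling followed the CD3 genes most closely, with a sum of 7.16 to 40.3 FPKM (r = 0.98, rho = 0.97 over 23 libraries, without a test). Cd7 made up much of this sum and was the only gene of the list that was tested, and single genes, named after their values were seen, ran from r = 0.346 (Trat1) to 0.941 (Zap70). The highest were Cd7 (6.65 FPKM), a receptor of early and mature T cells, and Ptprc (0.94 FPKM), the CD45 phosphatase, and the constant regions of the T cell receptor were not analysed here. In set 2 the sum was 12.5 to 40.3 FPKM in Con-FMT and 7.16 to 10.7 FPKM in A10-FMT. Cytotoxic and NK-type receptors (24 genes, none tested, led by the adaptors Tyrobp and Fcer1g) summed to 2.74 to 10.04 FPKM with r = 0.844. The granule list of 20 further genes did not follow as a sum (r = 0.287), as Lamp1 (197 FPKM) and Ctsc (28.0 FPKM), lysosomal genes of many cells, made up most of it. Single genes of the list, named after their values were seen, differed. Ctsw (r = 0.874), Srgn (r = 0.87) and Prf1 (r = 0.795, mean 0.134 FPKM) followed the CD3 genes. Gzmm (r = -0.156), Serpinb9 (r = -0.111) and Tnf (r = 0.0399) did not. Of the 12 tested genes of the granule list 3 were called in the A10-FMT vs. Con-FMT interaction, all lower, beside 20.8% of all tested genes called and 6.7% called lower. They were Gzmk (-1.15, adjusted p = 0.0452 by limma), the interleukin receptor chain Il2rb (-1.07, adjusted p = 0.044) and the lysosomal protease Ctsl (-0.59, adjusted p = 0.0106). Gzmk had a mean of 1.046 FPKM but a median of 0.78 FPKM, so it passed the minimum through its higher libraries. Its call is no separate support for the interaction.

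The homing list holds epithelial partners of these lymphocytes. Of the homing list, the chemokine Ccl25 (401 FPKM) and E-cadherin (Cdh1, 244 FPKM), the ligand of CD103, were the highest, and the sum varied 1.28-fold (r = 0.441, rho = 0.508 with the CD3 genes). In the interaction, 4 of its 20 tested genes were called lower and 2 higher, beside 20.8% of all tested genes called and 6.7% called lower. The lower ones included Itgb7 (-0.96, adjusted p = 0.0455 by limma) and Cxcl16 (-0.76, adjusted p = 0.0283), and the higher ones were Tnfrsf14 (0.55, adjusted p = 0.00545) and Cdh1 (0.31, adjusted p = 0.00512). Itgb7 had a mean of 1.158 FPKM but a median of 0.93 FPKM, so it too passed the minimum through its higher libraries. The transcription factors listed for these cells, some of which other cells also use, led by Id3 (80.3 FPKM) and Id2 (8.21 FPKM), did not follow the CD3 genes as a sum (r = 0.069, rho = 0.126), most of which was Id3. Lower genes of the list, named after their values were seen, differed. Ikzf3 (r = 0.898) and Runx3 (r = 0.888) followed the CD3 genes, and Gata3 (r = 0.45) and Eomes (r = 0.404) did so less closely. Lef1 (r = 0.0846), Tox (r = -0.0895) and Bcl11b (r = -0.303) did not. Of its 9 tested genes, Bcl11b (0.66) and Tox (0.57) were called higher and Prdm1 (-0.80) lower in the interaction, beside 20.8% of all tested genes called. The plasma cell list (r = -0.06), of which nearly all was Xbp1, the macrophage and dendritic cell list (r = 0.189), led by Itgam, and the mast cell list (r = 0.549), led by Mcpt1 and Kit, followed less closely as sums. The macrophage sum was mostly Itgam (r = -0.411). Lower genes of that list, named after their values were seen, differed. C1qa (r = 0.804), Itgax (r = 0.753) and Csf1r (r = 0.715, at most 0.13 FPKM) followed the CD3 genes. Lyz2 (r = 0.236), Mrc1 (r = 0.194), Cd68 (r = 0.182) and Adgre1 (r = -0.0882) did not. In the interaction 1 of the 2 tested genes of the helper and regulatory T cell list (Cd44, 0.52) was called higher. So was 1 of the 2 tested mast cell genes (Kit, 0.54), beside 20.8% of all tested genes called.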

How the data were processed

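RNA of mouse small intestine was sequenced in 23 libraries. By their methods the authors scaled reads to RPKM and ran DEGseq on them. The deposited table holds FPKM, as its column names say, with the build mm10 in the submitters' notes; aligner and counter are not given in the sources used here, and the depth is unknown (FPKM summed to 556466 to 667957 per library). Of 24 value columns 23 were used; a Sa library of set 1 has a description that names another column, tried as an alternative. Groups came from the sample titles, and symbols from NCBI Gene numbers (17725 of 17842 matched). No pair of libraries was identical.

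Values were analysed as log2(FPKM + 1) with limma 3.58.1 (R 4.3.3; 1 mean per group, eBayes with trend, two-sided) over the 11337 genes that averaged 1 FPKM or more, adjusted over all of them; 7878 genes were not tested. Python 3.11.15 and scipy 1.17.1 were used for permutation tests. The script was tested on simulated data. GC content and length were from GENCODE M21 (10527 tested genes, 92.86%), and gene positions and promoters from RefSeq on GRCm38.p6. Motif strings were searched in the 250 bases before the start.

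The 10 genes, the companion lists and the comparisons were chosen with earlier results of these data known. Named are the 10 genes, the 2 highest genes of each list (some genes are not reported here), up to 4 called genes of a list and comparison, and the 10 genes most like the CD3 genes; Ncr1, Cd4, Csf1r, the single list genes so marked, Pcna among the called crypt genes and Cd8a as reference were chosen after their values were seen. Alternatives were a pseudocount of 0.1, no minimum level, a minimum of 5 FPKM, scaling by quantiles or trimmed means, fitting only the groups compared, the replicate number as a block, weights for array quality, the description's column, a GC content and length adjustment, and leaving out each library.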

Additional observations from a re-analysis of the deposited data

Results flagged for a closer look

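The A10-FMT vs. Con-FMT difference of Gzma, Gzmb and Nkg7 was unlike in the 2 sets by the limma test of the difference itself. The contrast in set 2 minus that in set 1 was -2.03 for Gzma (adjusted p = 0.0275), -2.06 for Gzmb (0.0158) and -1.45 for Nkg7 (0.0442). In set 1 the contrasts were 0.44, 0.38 and 0.34 and in set 2 -1.59, -1.68 and -1.12, none of them called on its own. When single libraries were left out, the count of called genes in this difference ran from 1 to 6. Gzmb was called in all 33 alternatives, Gzma in 24 of 33 and Nkg7 in 20 of 32, and only Gzmb was called without Con-FMT replicate 2 or 3 of set 2, among others.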

How the results depend on the processing

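Of 21 comparisons, the count of called genes stayed at 0 in 16 under all 33 alternatives. In A10-FMT vs. Con-FMT of set 2 (0 called), it was 1 with trimmed-mean scaling, 2 with the description's column, 2 with the GC content and length adjustment, 6 with array quality weights, and 0 to 5 when single libraries were left out (5 without Con-FMT replicate 1 of set 2, 2 without Sa replicate 1 or 3 of set 1). In A100-FMT vs. Con-FMT of set 2 it was 1 with array quality weights. It was 0 to 1 on leaving out libraries in A10-FMT vs. Sa over both sets and in the interaction of Con-FMT vs. Sa, the 1 in each case without Sa replicate 1 of set 1 (Ccl5 and Nkg7).

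In the A10-FMT vs. Con-FMT interaction (3 called), the count was 5 with quantile normalization, array quality weights, the description's column or the GC content and length adjustment, 2 without a minimum or with a mean of at least 5 FPKM, and 1 to 6 on leaving out libraries. It was 1 (Gzmb) without replicate 1 or 2 of Con-FMT or replicate 2 or 3 of A10-FMT in set 1, or without replicate 2 or 3 of Con-FMT or of A10-FMT in set 2. It was 6 without Con-FMT replicate 1 of set 2, and 5 without either Sa library, Con-FMT replicate 3 or A10-FMT replicate 1 of set 1. With the replicate block it was 4 (Cd8a in addition), but the numbers do not pair the samples, with correlations of same-numbered deviations of -0.352 to 0.319. Gzmb kept its call in all 33 alternatives, Gzma in 24 of 33 and Nkg7 in 20 of 32. The cause was not tested.

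Ccl5 in Con-FMT vs. Sa of set 2, uncalled, changed sign without Sa replicate 1 (-0.07) or 2 (-0.04) or Con-FMT replicate 2 (-0.05) or 3 (-0.36), and reached 0.73 without Con-FMT replicate 1. The ratio of Ccl5 to Cd8a kept its direction and its side of the threshold in 27 alternatives (0.658 to 1.07). Groups held 2 or 3 libraries and the depth is unknown, so the counting error of low values could not be given.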
